A study of Mus musculus with 6 samples.

Results

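Single nuclei of the prelimbic cortex (PL) of adult male mice raised by running mothers were compared with those of males raised by sedentary mothers, over all 6 of the 6 deposited snRNA-Seq libraries. The libraries form 3 matched pairs of 1 Run and 1 Sed library: cohort 1 with group housing (GH), cohort 2 with group housing, and cohort 2 with social isolation (SI). All mice were C57BL/6 males. Run males had a dam with a running wheel in the cage from shortly after birth to weaning, Sed males had a dam in a standard cage, and no offspring had a wheel after weaning. GH males lived with cagemates from weaning and SI males lived alone. Cohort 1 males had been through tube tests and were taken from the top and bottom of the ranking of their own group, whereas cohort 2 males had no behavioral testing. How rank was spread over the Run and Sed libraries of cohort 1 is not given in the sources used here, so rank and maternal environment may not be separate in that pair. Each library was made from the pooled tissue of 3 males that were not brothers, so the spread between mice within a group was not measured. The labels give an age of P21, the day of weaning, while the study describes the tissue as taken from adults.

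The PL is the middle part of the medial prefrontal cortex, and holds layered excitatory pyramidal neurons, inhibitory interneurons that release GABA, and glia. RNA in a nucleus is largely unspliced, so long neuronal genes with large introns contribute many of its reads. RNA encoded by the mitochondrial genome and the mature mRNAs of ribosomal proteins and respiratory chain subunits reside in the cytoplasm, and in nuclear preparations they are also found as free RNA in droplets without a nucleus.

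Over the 6 libraries, 4936 to 9926 barcodes were kept as nuclei, with 10445976 to 55404040 unique molecular identifiers (UMIs, each marking 1 captured RNA molecule) in their sums. In all 3 pairs more nuclei were kept from Run than from Sed, and their sums held more UMIs. The number kept was limited by the number of nuclei the study gives. Over all barcodes, the cohort 1 libraries held 159049013 UMIs in Run and 188952936 in Sed. Sed GH of cohort 2 stood apart with a median of 1817 UMIs per nucleus, against 3399.5 to 5249 in the other libraries. Droplets taken as background held a median of 810 and 943 UMIs in the Run and Sed libraries of cohort 1. In cohort 2 they held 260 and 82 in GH, and 300 and 152 in SI. Set against the median nucleus of the library, this was 16.8% in Run and 18.0% in Sed of cohort 1 GH. It was 7.65% and 4.51% in cohort 2 GH, and 7.52% and 4.38% in cohort 2 SI. Background was thus heavier in Run in both cohort 2 pairs. Pairs of libraries shared 5 to 27 barcodes, at most 0.416% of the smaller library. The male label was checked with the Y-linked genes Ddx3y, Uty, Kdm5d and Eif2s3y, which had UMIs in all 6 libraries, while Xist, which is expressed from the inactive X chromosome of females, had 0 to 6 UMIs per library.

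UMIs were summed per library and expressed as CPM after scaling with TMM factors, and a log2 ratio of Run to Sed was taken within each pair. The fitted difference over the 3 pairs is given as log2 ± SE. The SE was derived from the edgeR F statistic, which borrows spread across genes, and is not the spread of the 3 ratios. Of 18380 genes tested with edgeR, 0 (0%) passed an adjusted p of 0.05, the lowest adjusted p being 0.402. At an unadjusted p under 0.05, edgeR had 743 genes higher in Run (4.04%) and 685 lower (3.73%), 7.77% in all. DESeq2 called 76 genes (0.413%), 47 higher (0.256%) and 29 lower (0.158%). A ratio above 0 in 3 of 3 pairs was found for 3095 genes (16.8%), and a ratio below 0 in 3 of 3 pairs for 2666 (14.5%). With total UMIs in place of TMM these counts were 4039 and 1767. The median ratio of all genes tested was then -0.01, 0.13 and 0.07 in cohort 1 GH, cohort 2 GH and cohort 2 SI. Tests of sign alone were not made, because 3 pairs cannot reach an exact 2-sided sign test p below 0.25. A direction shared by all pairs is therefore a description. The cohort 2 pairs alone had the same sign in 74.9% of 8949 genes with at least 100 UMIs in every library. The counts above can thus not be read against 3 unrelated pairs.

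The pairs differed in how far they moved together. Over 8949 genes with at least 100 UMIs in every library, the ratios of cohort 2 GH and cohort 2 SI, which share no library, had a Pearson r of 0.78 and a Spearman rho of 0.70, and 74.9% of the genes had the same sign. The cohort 1 ratios had r = -0.20 and rho = -0.03 against cohort 2 GH, and r = -0.25 and rho = -0.13 against cohort 2 SI, with the same sign in 49.3% and 45.3% of genes. These correlations are across genes, which are not independent replicates, and the pairs of cohort 2 came from one experiment and cohort 1 from another. When 1 library of the cohort 1 pair was left out, so that the fit rested on the cohort 2 pairs with 1 residual degree of freedom, edgeR called 2522 genes without the Run library and 2481 without the Sed library. The first of these were 1009 higher (5.37%) and 1513 lower (8.05%) in Run.

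**Figure D1:**
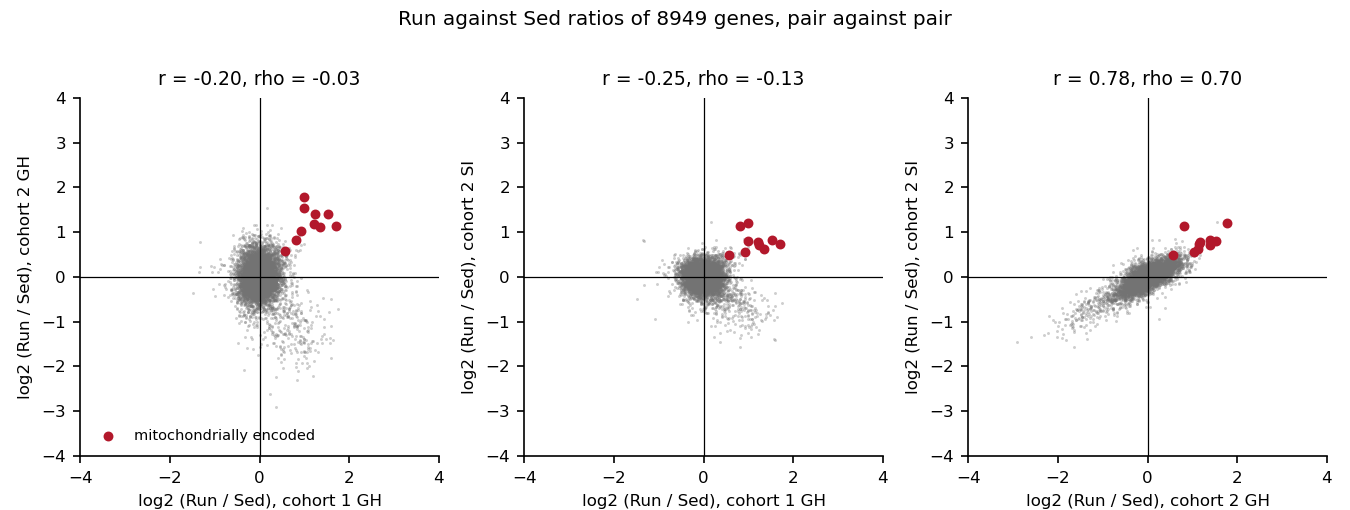
Log2 ratio of Run to Sed of each of 8949 genes in one pair (x axis) against another pair (y axis), 1 point per gene, with the 10 mitochondrially encoded genes that had at least 100 UMIs in every library in red. The cloud runs along the diagonal for the cohort 2 pairs (r = 0.78) and not for either comparison with cohort 1 (r = -0.20 and -0.25), while the red points lie above 0 in every panel.

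Among 42 gene lists, 18 had a median ratio of the same sign in all 3 pairs, 11 above 0 and 7 below. Summed levels, which the most abundant members set, had that sign in each pair for 7 of the 11 and for 1 of the 7 with the same TMM scaling, and for 9 and 1 with total UMIs. The ratios of the cohort 2 pairs moved together across genes (r = 0.78). The count of 18 lists can therefore not be read against 3 unrelated pairs either. The genes named within the lists were those with the lowest p among members with a shared direction, or those that differed between cohorts, and were chosen after their values were seen. No list member passed the edgeR test over the 3 pairs in all nuclei, so levels and ratios are given for each without a call unless a test is named. DESeq2 adjusted p is printed only for genes that passed that test. DESeq2 called 0 members of the lists of microglial markers, calcium channels, potassium and HCN channels, and immediate early genes.

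RNA encoded by the mitochondrial genome had the largest median of the 42 lists in each pair. Its 13 genes, which encode subunits of respiratory chain complexes and of ATP synthase, had median log2 ratios of 0.99, 1.13 and 0.72 in cohort 1 GH, cohort 2 GH and cohort 2 SI, where the median of all genes tested was 0.01, 0.01 and -0.00. Of the 13, 12 were higher in Run in 3 of 3 pairs, 10 had an unadjusted p under 0.05, and 10 were called by DESeq2. Summed over the 13 genes, the level was 446 CPM in Run and 200.4 in Sed of cohort 1 GH, 2852 and 1107 in cohort 2 GH, and 2925 and 1653 in cohort 2 SI. mt-Co3, a subunit of cytochrome c oxidase, stood at 84.7 CPM in Run and 42.5 in Sed of cohort 1 GH, 750.3 and 217 in cohort 2 GH, and 718 and 313 in cohort 2 SI. Run was higher in each pair, but the level in Sed of cohort 2 exceeded that in Run of cohort 1, so the groups overlapped across cohorts. The fitted difference of mt-Co3 was 1.33 ± 0.16 (edgeR adjusted p = 0.402, DESeq2 adjusted p = 9.8e-13). mt-Nd1, a subunit of complex I, stood at 28.1 CPM in Run and 11.8 in Sed of cohort 1 GH, 119.7 and 52.7 in cohort 2 GH, and 130.1 and 75.8 in cohort 2 SI. mt-Nd1 differed by 1.07 ± 0.11 (edgeR adjusted p = 0.402). The exception was mt-Nd6, which is transcribed from the other strand of the mitochondrial genome, with ratios of 0.93, -0.92 and -0.69.

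The levels of these RNAs in background droplets moved with this result in part. Their share of UMIs in background droplets was 4.16 to 4.75 times their share in nuclei in cohort 1 and 14.3 to 23.8 times in cohort 2. Within the background itself, their summed share of UMIs was higher in Run in each pair, by log2 1.32, 0.91 and 0.18. When a background profile was taken off each library, the list medians were 0.99, -0.83 and -0.02, above 0 in cohort 1 GH only. The subtraction took off most of these UMIs in every library, and a larger part in cohort 2 than in cohort 1. The cohort 2 medians therefore rest on small remainders. Mitochondrial UMIs made up 0.0418% of the UMIs of nuclei in Run and 0.0191% in Sed of cohort 1 GH, 0.306% and 0.108% in cohort 2 GH, and 0.310% and 0.166% in cohort 2 SI. These levels follow a limit of 1% mitochondrial UMIs per nucleus, which removed 1, 280 and 308 barcodes from the Run libraries in the same order and 0, 1 and 24 from the Sed libraries. Without that limit mt-Co3 differed by 1.36 and mt-Nd1 by 1.09.

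Nuclear genes of oxidative phosphorylation, whose products join the mitochondrially encoded subunits in the respiratory chain, were also higher in Run in each pair. Of 70 genes, 56 were higher in 3 of 3 pairs and 0 were lower in 3 of 3, 43 had an unadjusted p under 0.05, and 4 were called by DESeq2. The list medians were 0.24, 0.38 and 0.26. Cox8a, a small subunit of cytochrome c oxidase, stood at 20.4 CPM in Run and 13.6 in Sed of cohort 1 GH, 117 and 90.7 in cohort 2 GH, and 117 and 84.03 in cohort 2 SI. Cox8a differed by 0.48 ± 0.08 (edgeR adjusted p = 0.579, DESeq2 adjusted p = 0.00793). Ndufa4, another subunit associated with that complex, was at 12.1 against 6.67 CPM in cohort 1 GH, 50.7 against 33.4 in cohort 2 GH and 51.1 against 36.4 in cohort 2 SI. Run was higher than Sed in each pair for both genes, and the spread between cohorts was larger than that between Run and Sed. With the background profile taken off, the list medians stayed above 0 at 0.05, 0.17 and 0.03.

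Cytoplasmic ribosomal proteins gave a like pattern, with 59 of 79 genes higher in Run and 1 lower in 3 of 3 pairs, medians of 0.23, 0.42 and 0.35, and 6 genes called by DESeq2. Rps21, a protein of the small ribosomal subunit, stood at 10.3 CPM in Run and 6.54 in Sed of cohort 1 GH, 70.9 and 53.7 in cohort 2 GH, and 97.9 and 62.3 in cohort 2 SI. Rps21 differed by 0.57 ± 0.09 (edgeR adjusted p = 0.579, DESeq2 adjusted p = 0.00385). Abundant cytoplasmic and chaperone mRNAs were higher in 3 of 3 pairs for 35 of 56 genes, with medians of 0.13, 0.46 and 0.27 and 10 calls by DESeq2. Ubb, a polyubiquitin gene, was at 15.1 against 7.94 CPM in cohort 1 GH, 166 against 87.7 in cohort 2 GH and 141 against 95.9 in cohort 2 SI. Fth1, the ferritin heavy chain, was at 32.8 against 22.2 CPM in cohort 1 GH, 209 against 119 in cohort 2 GH and 199.7 against 146 in cohort 2 SI. Neither list kept its direction once the background profile was taken off: the medians were then -0.13, -0.02 and -0.08 for ribosomal proteins and -0.05, 0.06 and -0.03 for the cytoplasmic list. In cohort 2 the background droplets held ribosomal protein mRNA at 10.4 to 16.9 times its share in nuclei, and in cohort 1 at 1.67 to 2.91 times. The part of free RNA in the difference between Run and Sed nuclei was not tested beyond this subtraction.

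**Figure D2:**
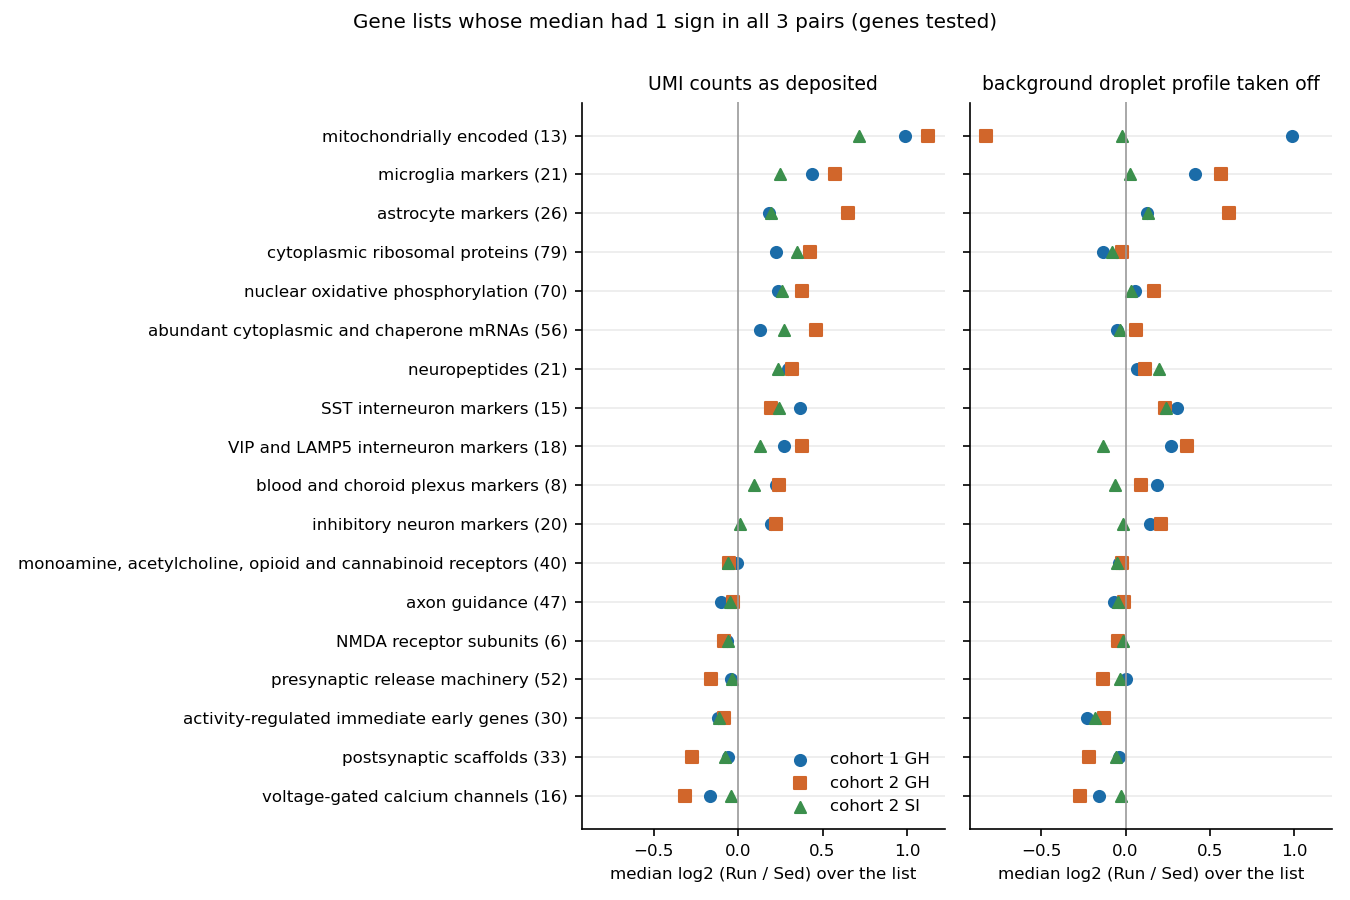
Median log2 ratio of Run to Sed (x axis) of the 18 gene lists whose median had the same sign in all 3 pairs, with the number of genes tested in brackets and 1 point for each pair. The left panel uses the UMI counts as deposited and the right panel the counts after the background droplet profile was taken off. There, mitochondrially encoded RNA keeps a median above 0, of 0.99, in cohort 1 GH only. In that panel 11 of the 18 lists keep their direction, SST interneuron markers and calcium channels among them.

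Marker genes of cell types were compared next. In sums over nuclei, fewer nuclei of a type and less RNA per nucleus cannot be told apart. Microglial markers had medians of 0.44, 0.57 and 0.25, and 14 of 21 were higher in Run and 0 lower in 3 of 3 pairs. Without the background profile the medians were 0.41, 0.56 and 0.03, so the SI pair was left near 0, and background droplets held these RNAs at 1.53 to 4.87 times their share in nuclei. Their summed level was 172 CPM in Run and 153 in Sed of cohort 1 GH, 158 and 115 in cohort 2 GH, and 163 and 148 in cohort 2 SI. Ly86, which encodes MD-1, a partner of a Toll-like receptor family member, stood at 3.70 CPM in Run and 2.60 in Sed of cohort 1 GH, 5.78 and 3.03 in cohort 2 GH, and 6.38 and 3.64 in cohort 2 SI. Ly86 differed by 0.74 ± 0.18 (edgeR adjusted p = 0.607). Its ratios stayed at 0.46, 0.86 and 0.73 without the background profile. C1qa, a complement subunit made by microglia, was at 0.982 against 0.371 CPM in cohort 1 GH, 4.91 against 3.13 in cohort 2 GH and 5.04 against 3.08 in cohort 2 SI. Its ratios without the background profile were 0.66, -0.99 and 0.16. P2ry12, a purinergic receptor of microglia, went against the list in cohort 2, with ratios of 0.86, -0.73 and -0.06 and a cohort difference of -1.32 ± 0.25 (edgeR adjusted p = 9.5e-04).

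Astrocyte markers had medians of 0.18, 0.65 and 0.20, with 10 of 26 higher and 0 lower in 3 of 3 pairs and 4 called by DESeq2. Their summed level had ratios of 0.17, 0.34 and -0.02, the last being 0.06 with total UMIs. The medians stayed at 0.12, 0.61 and 0.13 without the background profile, in which these RNAs stood at 0.936 to 3.33 times their share in nuclei. Apoe, the main lipid carrier secreted by astrocytes, stood at 18.7 CPM in Run and 10.7 in Sed of cohort 1 GH, 95.1 and 67.5 in cohort 2 GH, and 114 and 78.9 in cohort 2 SI. Apoe differed by 0.61 ± 0.09 (edgeR adjusted p = 0.579, DESeq2 adjusted p = 6.7e-04). Aldoc, the aldolase of astrocytes, was at 8.07 against 5.69 CPM in cohort 1 GH, 33.6 against 15.5 in cohort 2 GH and 33.5 against 21.1 in cohort 2 SI. Rorb, a nuclear receptor that cortical neurons also express, was at 159 against 112 CPM in cohort 1 GH, 139 against 111 in cohort 2 GH and 124 against 95.3 in cohort 2 SI. All 3 Run libraries exceeded all 3 Sed libraries for Rorb, and its ratios without the background profile were 0.55, 0.38 and 0.42. Cst3, the secreted protease inhibitor cystatin C, which is made mostly by glia, was at 22.6 against 11.1 CPM in cohort 1 GH, 136 against 81.8 in cohort 2 GH and 149 against 93.6 in cohort 2 SI. Cst3 differed by 0.80 ± 0.10 (edgeR adjusted p = 0.402, DESeq2 adjusted p = 1.1e-07), and by 0.42 without the background profile. Mt1, a metallothionein, was at 6.74 against 3.39 CPM in cohort 1 GH, 38.9 against 25.2 in cohort 2 GH and 49.1 against 27.1 in cohort 2 SI. Its difference of 0.82 ± 0.11 was 0.61 without the background profile. Markers of blood and choroid plexus, which lie outside the cortical tissue itself, had medians of 0.22, 0.24 and 0.09, with 5 of 8 genes higher and 0 lower in 3 of 3 pairs. Their summed level was 7.89 CPM in Run and 4.77 in Sed of cohort 1 GH, 40.6 and 37.1 in cohort 2 GH, and 39.2 and 44.1 in cohort 2 SI. Background droplets held them at 11.3 to 16.5 times their share in nuclei in cohort 2 and 1.48 times in cohort 1, and without the background profile the medians were 0.19, 0.09 and -0.06. Their part in the results for cytoplasmic and glial RNAs was not tested. Oligodendrocyte and myelin markers and oligodendrocyte precursor markers had no shared direction, with medians of 0.05, 0.41 and -0.09 and of -0.04, 0.75 and 0.35.

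Several lists of interneuron genes had medians above 0 in each pair. Markers of SST interneurons, which inhibit the dendrites of pyramidal neurons, had medians of 0.36, 0.20 and 0.24, and 8 of 15 were higher and 1 lower in 3 of 3 pairs. The list stayed at 0.31, 0.23 and 0.24 without the background profile and at 0.34, 0.32 and 0.32 with total UMIs. Sst, the peptide somatostatin that defines these cells, stood at 12.4 CPM in Run and 8.02 in Sed of cohort 1 GH, 27.6 and 17.9 in cohort 2 GH, and 27.98 and 17.5 in cohort 2 SI. Each Run library exceeded its own Sed library, and the difference was 0.64 ± 0.10 (edgeR adjusted p = 0.579, DESeq2 adjusted p = 0.00570). It was 0.16 without the background profile, so the peptide itself depended on that choice more than its list. Sox6, a transcription factor of interneurons from the medial ganglionic eminence, was at 127 against 93.1 CPM in cohort 1 GH, 69.6 against 57.7 in cohort 2 GH and 77.9 against 64.5 in cohort 2 SI. Its ratios were 0.53, 0.33 and 0.32 once the background profile was off. Cdh7, a cadherin, was at 65.2 against 47.9 CPM in cohort 1 GH, 77.6 against 62.1 in cohort 2 GH and 59.8 against 50.5 in cohort 2 SI. Elfn1, a synaptic adhesion protein of SST interneurons, was the member lower in each pair, with ratios of -0.47, -0.43 and -0.10.

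Neuropeptides had medians of 0.29, 0.32 and 0.23, with 12 of 21 higher and 0 lower in 3 of 3 pairs, and 0.07, 0.11 and 0.20 without the background profile. Npy, neuropeptide Y, stood at 10.3 CPM in Run and 7.55 in Sed of cohort 1 GH, 18.6 and 11.3 in cohort 2 GH, and 16.6 and 11.9 in cohort 2 SI. Cck, cholecystokinin, was at 43.6 against 26.9 CPM in cohort 1 GH, 108 against 83.2 in cohort 2 GH and 94.02 against 79.9 in cohort 2 SI. Without the background profile the ratios of Npy stayed at 0.24, 0.45 and 0.47, whereas those of Cck were 0.28, -0.63 and -0.48. Gad2, a GABA-synthesizing enzyme, was at 31.4 against 25.5 CPM in cohort 1 GH, 28.97 against 22.6 in cohort 2 GH and 31.9 against 26.4 in cohort 2 SI, where all 3 Run libraries exceeded all 3 Sed libraries. General inhibitory markers had medians of 0.19, 0.22 and 0.01, and markers of VIP and LAMP5 interneurons 0.27, 0.38 and 0.13, both with the last pair below 0 without the background profile. Their summed levels had no shared direction, with ratios of 0.38, 0.23 and -0.05 for inhibitory markers and 0.30, 0.02 and -0.21 for VIP and LAMP5 markers. With total UMIs the last pair was at 0.03 and -0.13. Markers of PV interneurons had no shared direction, with 4 of 18 higher and 2 lower in 3 of 3 pairs. Nuclei with a UMI of Gad1 or Gad2 and none of Slc17a7 made up 9.65% of Run and 8.49% of Sed nuclei in cohort 1 GH, 8.57% and 5.35% in cohort 2 GH, and 9.56% and 8.87% in cohort 2 SI. With every nucleus thinned to 1000 UMIs these shares were 4.70% and 4.15%, 5.34% and 3.79%, and 5.60% and 5.67%, so that the SI pair turned and the direction was no longer shared.

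On the other side, genes of the postsynaptic density had medians below 0. Of 33 postsynaptic scaffold genes, 14 were lower and 1 higher in 3 of 3 pairs, 8 had an unadjusted p under 0.05, and the medians were -0.06, -0.28 and -0.08. Their summed level gave ratios of 0.05, -0.20 and -0.08. With total UMIs the medians were -0.08, -0.14 and -0.00, and without the background profile -0.04, -0.22 and -0.06. Iqsec1, an exchange factor for ARF6 at synapses, stood at 548 CPM in Run and 592 in Sed of cohort 1 GH, 285 and 387 in cohort 2 GH, and 309 and 363 in cohort 2 SI. Run was lower than its own Sed library in each pair, and the difference was -0.26 ± 0.09 (edgeR adjusted p = 0.625). Dlgap4, a PSD-95 binding scaffold, was at 361 against 440.2 CPM in cohort 1 GH, 197 against 242 in cohort 2 GH and 206 against 227 in cohort 2 SI.

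Calcium channel genes were lower in 3 of 3 pairs for 7 of 16 members and higher for 0, with medians of -0.17, -0.32 and -0.05. The last of these was 0.03 with total UMIs, so the shared direction of this list depended on the scaling. Cacnb1, an auxiliary subunit of high-voltage-activated channels, stood at 36.5 CPM in Run and 46.5 in Sed of cohort 1 GH, 24.5 and 31.5 in cohort 2 GH, and 24.4 and 32.2 in cohort 2 SI. Cacnb1 differed by -0.37 ± 0.08 (edgeR adjusted p = 0.607). Cacna1g, a T-type channel, was at 63.9 against 88.9 CPM in cohort 1 GH, 33.1 against 42.3 in cohort 2 GH and 36.5 against 41.4 in cohort 2 SI. Members of the T-type family, Cacna1g, Cacna1h and Cacna1i, were lower in Run in each pair, with differences of -0.34 ± 0.09, -0.38 ± 0.12 and -0.26 ± 0.08. The presynaptic release machinery was lower in 3 of 3 pairs for 14 of 52 genes and higher for 4, with medians of -0.04, -0.16 and -0.04, the last of them 0.04 with total UMIs. Unc13a, which primes synaptic vesicles, was at 195 against 261 CPM in cohort 1 GH, 106 against 137 in cohort 2 GH and 100.3 against 119 in cohort 2 SI. Rph3a, a rabphilin on synaptic vesicles, had ratios of -0.20, -0.44 and -0.43. Rab3a and Vamp2, a small GTPase and a SNARE of those vesicles, went the other way, with ratios of 0.41, 0.74 and 0.48 for Rab3a and 0.25, 0.87 and 0.47 for Vamp2.

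Potassium and HCN channel genes were lower in 3 of 3 pairs for 13 of 45 members and higher for 3, though the list median was 0.01 in cohort 1 GH. Kcnt1, a sodium-activated potassium channel, stood at 66.5 CPM in Run and 106 in Sed of cohort 1 GH, 38.4 and 51.1 in cohort 2 GH, and 41.3 and 50.3 in cohort 2 SI. Kcnt1 differed by -0.46 ± 0.10 (edgeR adjusted p = 0.588). Chromatin and DNA methylation genes were lower in 3 of 3 pairs for 14 of 42 members and higher for 5, with medians of -0.08, -0.05 and 0.05. Hdac5, a histone deacetylase that shuttles out of the nucleus with neuronal activity, stood at 39.2 CPM in Run and 50.4 in Sed of cohort 1 GH, 23.7 and 36.6 in cohort 2 GH, and 27.5 and 44.3 in cohort 2 SI. Hdac5 differed by -0.56 ± 0.10 (edgeR adjusted p = 0.588, DESeq2 adjusted p = 0.0138). Kmt2a, a histone methyltransferase, was at 303 against 385 CPM in cohort 1 GH, 147 against 184 in cohort 2 GH and 161 against 184 in cohort 2 SI. Chd4, a nucleosome remodeler, was at 116 against 135 CPM in cohort 1 GH, 80.7 against 104 in cohort 2 GH and 85.5 against 101 in cohort 2 SI. NMDA receptor subunits, axon guidance genes and receptors for monoamines, acetylcholine, opioids and cannabinoids had medians below 0 in each pair. Genes higher and lower in 3 of 3 pairs numbered 1 and 2 of 6, 4 and 10 of 47, and 6 and 6 of 40, near the shares among all genes for the last list, and the summed level of axon guidance genes had ratios of 0.13, -0.13 and -0.02. All 3 of these lists had a median above 0 in cohort 2 with total UMIs, of 0.05 and 0.02, 0.10 and 0.03, and 0.07 and 0.02 in the GH and SI pairs.

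Activity-regulated immediate early genes had medians of -0.12, -0.09 and -0.11, with 8 of 30 lower and 2 higher in 3 of 3 pairs and 5 at an unadjusted p under 0.05. The list median in cohort 2 GH was 0.04 with total UMIs, and thinning every nucleus to 1000 UMIs gave 0.02, 0.17 and -0.00. Their summed level was 641 CPM in Run and 557 in Sed of cohort 1 GH, 598 and 743 in cohort 2 GH, and 516 and 676 in cohort 2 SI, so that cohort 1 went against the median. In nuclei with Gad1 or Gad2 and without Slc17a7 the medians were 0.14, 0.46 and -0.11, with 4 of 23 higher and 2 lower. Fosb, an AP-1 transcription factor, stood at 2.21 CPM in Run and 3.71 in Sed of cohort 1 GH, 1.04 and 2.15 in cohort 2 GH, and 1.42 and 2.18 in cohort 2 SI. Fosb differed by -0.79 ± 0.22 (edgeR adjusted p = 0.612). Nr4a3, an activity-induced nuclear receptor, was at 15.1 against 19.1 CPM in cohort 1 GH, 5.63 against 15.1 in cohort 2 GH and 6.84 against 11.7 in cohort 2 SI. Sik1, a salt-inducible kinase, was at 2.64 against 4.32 CPM in cohort 1 GH, 2.44 against 4.40 in cohort 2 GH and 3.22 against 4.68 in cohort 2 SI, with all 3 Run libraries below all 3 Sed libraries. Their ratios without the background profile were -0.72, -0.91 and -0.66 for Fosb, -0.34, -1.49 and -0.85 for Nr4a3 and -0.66, -0.69 and -0.44 for Sik1.

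Outside the lists, the genes named by the size of their smallest ratio included several lower in Run in every pair. Srrm2, a protein of nuclear speckles and the spliceosome, stood at 512 CPM in Run and 689 in Sed of cohort 1 GH, 356 and 609 in cohort 2 GH, and 406 and 543 in cohort 2 SI. Mycbp2, a large ubiquitin ligase of axons, was at 657 CPM in Run and 872 in Sed of cohort 1 GH, 517 and 845 in cohort 2 GH, and 569 and 809.8 in cohort 2 SI. For both, all 3 Run libraries were below all 3 Sed libraries. The differences were -0.54 ± 0.10 for Srrm2 (DESeq2 adjusted p = 0.00167) and -0.54 ± 0.09 for Mycbp2 (DESeq2 adjusted p = 2.0e-04), with edgeR adjusted p of 0.588 and 0.579. Mapk11, the beta form of p38 MAP kinase, stood at 22.8 CPM in Run and 31.5 in Sed of cohort 1 GH, 49.7 and 70.6 in cohort 2 GH, and 40.5 and 58.2 in cohort 2 SI. Unc5a, a netrin receptor that also counts among the axon guidance genes, was at 45.3 CPM in Run and 64.1 in Sed of cohort 1 GH, 27.4 and 44.2 in cohort 2 GH, and 31.8 and 42.3 in cohort 2 SI. Their ratios were close between pairs, -0.46, -0.50 and -0.52 for Mapk11 and -0.50, -0.68 and -0.41 for Unc5a. Cers1, the main ceramide synthase of neurons, and Atg2a, a lipid transfer protein of autophagy, differed by -0.57 ± 0.12 and -0.45 ± 0.09. Without the background profile the differences were -0.53 for Srrm2, -0.53 for Mycbp2, -0.50 for Mapk11, -0.57 for Unc5a, -0.56 for Cers1 and -0.44 for Atg2a.

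**Figure D3:**
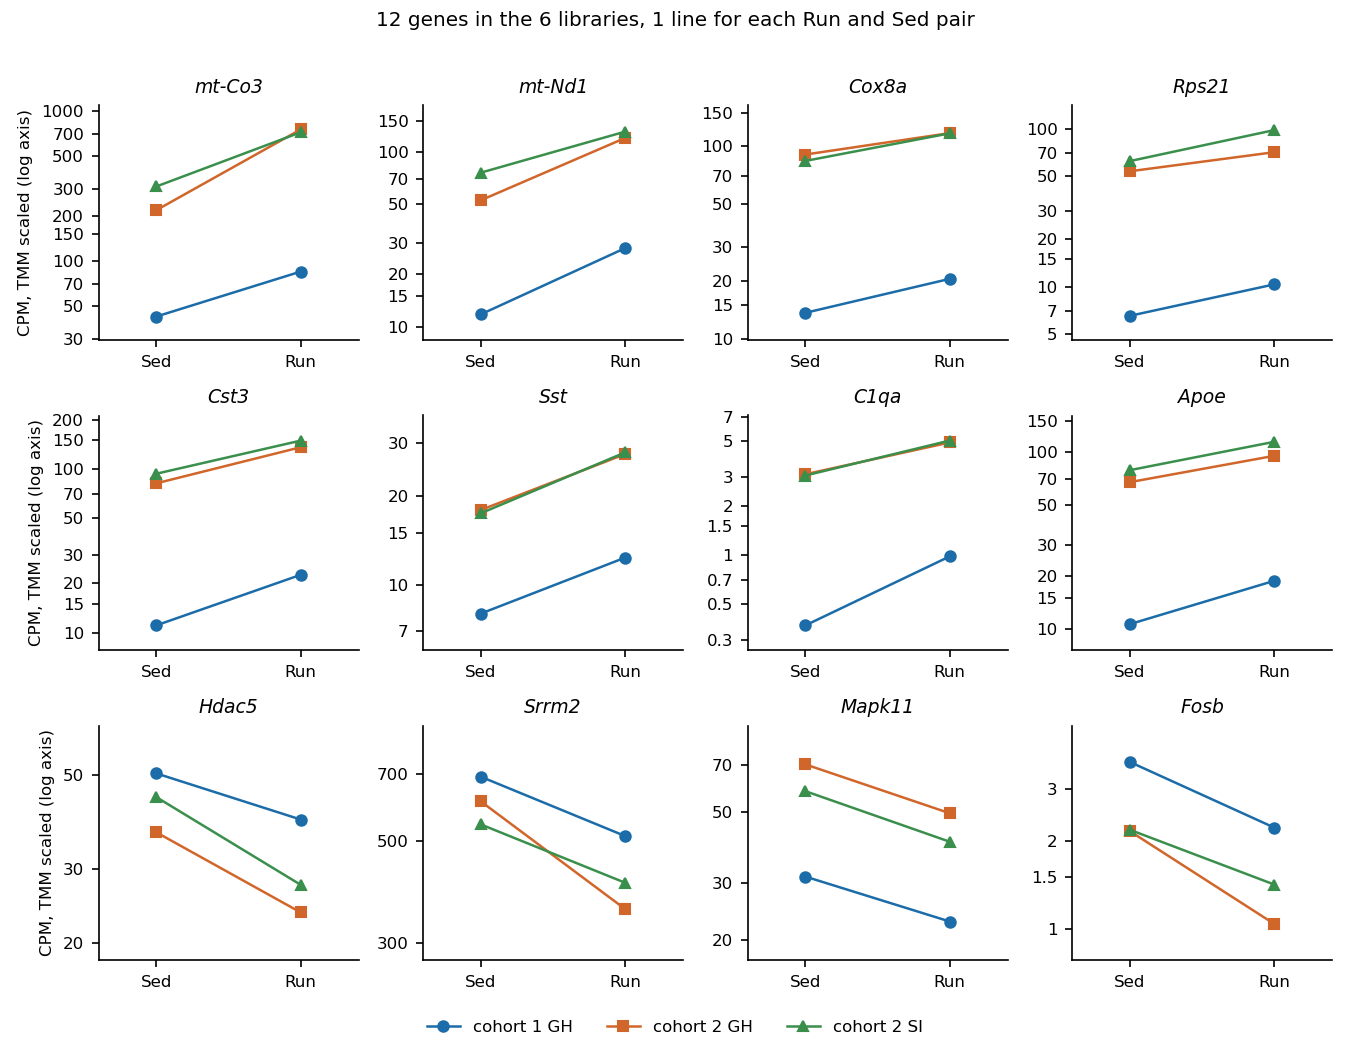
Level of 12 genes in the 6 libraries, in TMM-scaled CPM on log axes, with a line joining the Sed and Run library of each pair. mt-Co3, mt-Nd1, Cox8a, Rps21, Cst3, Sst, C1qa and Apoe slope upward and Hdac5, Srrm2, Mapk11 and Fosb downward in all 3 pairs, and the cohorts lie at different heights, as for mt-Co3 with 42.5 CPM in Sed of cohort 1 GH and 313 in Sed of cohort 2 SI.

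Excitatory neuron markers had medians of -0.10, 0.01 and -0.00. Slc17a7, the vesicular glutamate transporter that defines cortical excitatory neurons, stood at 141 CPM in Run and 166 in Sed of cohort 1 GH, 198 and 247 in cohort 2 GH, and 196 and 246 in cohort 2 SI. Slc17a7 differed by -0.29 ± 0.07 (edgeR adjusted p = 0.607). Nuclei that held Slc17a7 but neither Gad1 nor Gad2 made up 43.1% in Run and 49.0% in Sed of cohort 1 GH, 46.9% and 36.0% in cohort 2 GH, and 49.2% and 50.0% in cohort 2 SI. Detection of a UMI depends on depth, and the Sed library of cohort 2 GH was the shallowest. With every nucleus thinned to 1000 UMIs and the gate drawn again, the shares were 12.5% in Run and 14.3% in Sed of cohort 1 GH, 18.2% and 20.9% in cohort 2 GH, and 17.9% and 20.5% in cohort 2 SI. At equal depth the share was thus lower in Run in each pair, and at full depth it was higher in Run in cohort 2 GH. Thinning does not remove free RNA, and either gate counts a UMI of it like any other. Cux2, a transcription factor of layers 2 to 4, was at 407 against 469 CPM in cohort 1 GH, 149.9 against 216 in cohort 2 GH and 151 against 201 in cohort 2 SI. Lists that mark layer 2/3, with 1 of 13 genes higher and 2 lower in 3 of 3 pairs, and layer 5, with 3 of 19 higher and 1 lower, had no shared direction either.

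To see whether these differences were found inside neurons of one kind, UMIs were summed over nuclei with Slc17a7 and without Gad1 and Gad2, and over nuclei with Gad1 or Gad2 and without Slc17a7. These are gates on 3 genes and not cell types. In Slc17a7-positive nuclei edgeR called 0 of 16679 genes (0%), with 1212 at an unadjusted p under 0.05 (7.27%, of which 3.57% were higher and 3.69% lower) and 35 called by DESeq2. A direction shared by 3 of 3 pairs was found for 2608 genes higher in Run (15.6%) and 2485 lower (14.9%). Mitochondrially encoded RNA had medians of 1.06, 1.12 and 0.73 there, oxidative phosphorylation 0.20, 0.35 and 0.26, ribosomal proteins 0.18, 0.36 and 0.34, and postsynaptic scaffolds -0.07, -0.22 and -0.09. With the background profile taken off within the gate these medians were 1.00, -0.26 and 0.07, then 0.02, 0.14 and 0.01, then -0.16, -0.13 and -0.07, and last -0.06, -0.17 and -0.05. Markers of other cell types also had medians above 0 in this gate, of 0.37, 0.38 and 0.26 for 26 astrocyte markers and 0.35, 0.33 and 0.51 for 15 SST interneuron markers. With the background profile taken off within the gate they were 0.43, 0.17 and 0.06, and 0.43, 0.28 and 0.49. Sst differed by 0.82 ± 0.13 in Slc17a7-positive nuclei and by 0.38 ± 0.17 in Gad-positive nuclei.

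In Gad-positive nuclei, of which libraries held 264 to 925, edgeR called 5 of 12524 genes (0.0399%), with 701 at an unadjusted p under 0.05 (5.6%, of which 2.75% were higher and 2.84% lower). A shared direction was found for 1850 genes higher in Run (14.8%) and 1606 lower (12.8%). The genes that rose were mt-Co3, mt-Co2, mt-Nd1 and mt-Atp6, and Taco1 fell. mt-Co3 was at 93.4 against 45.2 CPM in cohort 1 GH, 904 against 267 in cohort 2 GH and 858 against 384 in cohort 2 SI, a difference of 1.32 ± 0.16 (edgeR adjusted p = 0.0223). mt-Co2, another subunit of cytochrome c oxidase, was at 43.8 against 16.6 CPM in cohort 1 GH, 511 against 157 in cohort 2 GH and 522 against 309 in cohort 2 SI, a difference of 1.22 ± 0.18 (edgeR adjusted p = 0.0478). Taco1, an activator of translation of the mitochondrial cytochrome c oxidase subunit 1, was at 95.9 against 263 CPM in cohort 1 GH, 8.75 against 21.1 in cohort 2 GH and 8.07 against 12.3 in cohort 2 SI, a difference of -1.28 ± 0.19 (edgeR adjusted p = 0.0478). Run was higher than its Sed library in each pair for the mitochondrial genes and lower for Taco1. The count of 5 was 0 without the cohort 2 GH Run library, 334 and 337 without the Run or the Sed library of cohort 1, 9 and 8 without the Sed library of cohort 2 GH or SI, and 0 when the pairing was ignored. When the background profile was taken off within the gate, an alternative chosen after seeing the data, edgeR called 0 genes, with 541 at an unadjusted p under 0.05. The differences were then 0.25 for mt-Co3, 0.63 for mt-Co2, 1.26 for mt-Nd1, 0.33 for mt-Atp6 and -1.28 for Taco1, with edgeR adjusted p of 0.984 for the mitochondrial genes and 0.578 for Taco1. Pairs then split widely: mt-Co3 had ratios of 1.08, -0.41 and 0.06, mt-Co2 1.04, 1.60 and -0.15, mt-Nd1 1.27, -0.12 and 2.51, and mt-Atp6 1.59, -0.63 and 0.02. These ratios rest on what the subtraction left, which in all nuclei was a small part of mitochondrial UMIs in cohort 2. The medians of the 12 mitochondrially encoded genes left in this gate were 1.06, -0.06 and -0.29. Each of the 4 genes was above 0 in cohort 1 GH and had no shared direction over the cohort 2 pairs, while Taco1 stayed lower in Run in each pair, at -1.48, -1.24 and -0.54. Over all nuclei, with the background left in, the ratios of Taco1 were -1.48, -0.36 and -0.50. The 264 Gad-positive nuclei of Sed GH of cohort 2 held 531751 UMIs in all. The Taco1 level of 21.1 CPM there thus rests on few UMIs. SST markers had medians of -0.05, -0.02 and 0.09 within Gad-positive nuclei, and inhibitory markers -0.18, -0.10 and -0.25, where the sums over all nuclei had shown them above 0. Postsynaptic scaffolds had medians of 0.05, -0.21 and -0.08 there, and 0.07, -0.18 and -0.03 with the background profile taken off, so their direction was not shared in this gate.

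Genes were also grouped by the length of their span in the annotation. Of 4971 genes under 10 kb, 23.7% were higher and 9.68% lower in Run in 3 of 3 pairs, whereas of 593 genes over 300 kb, 9.27% were higher and 16.5% lower. Genes of 10 to 100 kb were near evenly split, at 15.3% and 15.7%, and those of 100 to 300 kb were at 10.7% and 19.2%. The medians did not follow length alike in the cohorts. In cohort 2 GH they were 0.20 under 10 kb and -0.14 over 300 kb, and in cohort 2 SI 0.06 and -0.06, while in cohort 1 GH they were 0.02 and 0.11. Genes under 10 kb held 35.6% to 39.7% of background UMIs in cohort 2 and 10.1% to 11.4% in cohort 1. Their share of nuclear UMIs ran opposite to the count of genes, at 6.29% in Run and 7.14% in Sed of cohort 1 GH, 15.4% and 15.9% in cohort 2 GH, and 15.2% and 16.7% in cohort 2 SI. Malat1, an abundant noncoding RNA retained in the nucleus and shorter than 10 kb, stood at 30344 CPM in Run and 32233 in Sed of cohort 1 GH, 87336 and 114889 in cohort 2 GH, and 89563 and 116521 in cohort 2 SI. It differed by -0.29 ± 0.18 (edgeR adjusted p = 0.700). The list of nuclear retained and noncoding RNAs to which it belongs had medians of -0.06, 0.06 and 0.00, while its summed level had ratios of -0.21, -0.33 and -0.31, and of -0.23, -0.19 and -0.23 with total UMIs. Without the background profile, the mean of the 3 medians under 10 kb was 0.02 in place of 0.09. With total UMIs the medians over 300 kb averaged 0.03 in place of -0.03.

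**Figure D4:**
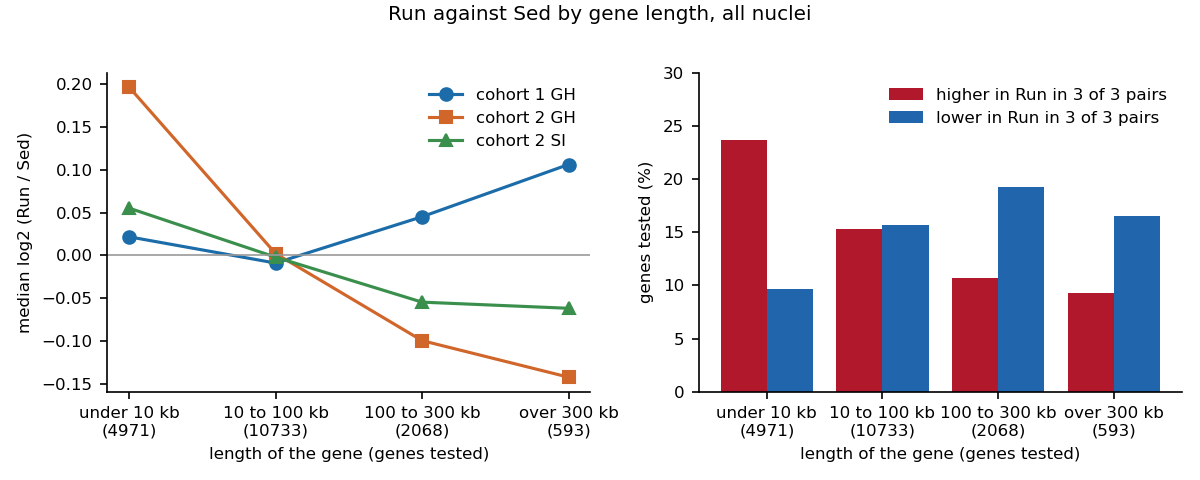
Left, median log2 ratio of Run to Sed (y axis) of genes in 4 classes of length (x axis, number of genes tested in brackets), 1 line for each pair. Right, percentage of the genes of each class that were higher (red) or lower (blue) in Run in 3 of 3 pairs, where 23.7% of genes under 10 kb were higher and 9.68% lower.

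Whether the ratio of Run to Sed was the same in both cohorts was tested with a term for maternal environment by cohort, on 1 residual degree of freedom. The cohort difference is the log2 ratio in cohort 2 minus that in cohort 1. With edgeR the test called 1596 of 18380 genes (8.68%), 480 with a higher ratio in cohort 2 (2.61%) and 1116 with a lower one (6.07%), and DESeq2 called 349. Cohort 1 has no replicate pair, so the spread in this test comes from the cohort 2 pairs alone. Far fewer genes were called after thinning, as given in the closing sections. Cohort goes together with tube testing, choice by rank, batch and depth, which cannot be told apart here. Housing also enters the cohort difference, because cohort 2 joins a GH and an SI pair while cohort 1 is GH only. Markers of layer 6, whose neurons project to the thalamus and other cortex, had a higher ratio in cohort 2 for 8 of 18 genes and a lower one for 0, and their medians were -0.50, 0.10 and 0.05. Hs3st4, a heparan sulfate sulfotransferase, stood at 452 CPM in Run and 910.1 in Sed of cohort 1 GH, 577 and 492 in cohort 2 GH, and 542 and 505 in cohort 2 SI. Cohort 1 Run was below its Sed library, and cohort 2 Run was above. Hs3st4 had a cohort difference of 1.18 ± 0.14 (edgeR adjusted p = 1.5e-06). Foxp2, a transcription factor of layer 6 neurons, was at 88.3 against 159 CPM in cohort 1 GH, 101 against 83.6 in cohort 2 GH and 102 against 101 in cohort 2 SI. Foxp2 had a cohort difference of 0.99 ± 0.14 (edgeR adjusted p = 2.4e-05). Syt6, a synaptotagmin, had ratios of -1.33, 0.22 and -0.18. Col6a1, a collagen that is in no list, was at 33.4 against 84.8 CPM in cohort 1 GH, 43.8 against 25.4 in cohort 2 GH and 41.6 against 23.8 in cohort 2 SI. Col6a1 had a cohort difference of 2.14 ± 0.16 (edgeR adjusted p = 4.7e-10).

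Other genes had a lower ratio in cohort 2 than in cohort 1. Homer1, a postsynaptic scaffold with an activity-induced short form, stood at 289 CPM in Run and 195 in Sed of cohort 1 GH, 213 and 319 in cohort 2 GH, and 175 and 282 in cohort 2 SI. It was higher in Run in cohort 1 and lower in both pairs of cohort 2. Homer1 had a cohort difference of -1.20 ± 0.14 (edgeR adjusted p = 7.3e-07). Bdnf, a neurotrophin induced by activity, was at 27.4 against 22.2 CPM in cohort 1 GH, 28.9 against 42.1 in cohort 2 GH and 22.5 against 35.01 in cohort 2 SI. Bdnf had a cohort difference of -0.89 ± 0.17 (edgeR adjusted p = 8.7e-04). Nr4a1, an immediate early nuclear receptor, had ratios of 0.04, -0.51 and -0.57. Of the 41 neurexin, teneurin and latrophilin adhesion genes 10 had a lower ratio in cohort 2 and 1 a higher one, and of the 54 cadherins, protocadherins and contactins 11 and 3. Flrt3, a ligand of latrophilins, was at 24.3 against 15.04 CPM in cohort 1 GH, 40.1 against 63.8 in cohort 2 GH and 44.5 against 63.2 in cohort 2 SI. Ctnna3, an alpha-catenin listed with the cadherins, was at 139.9 against 78.3 CPM in cohort 1 GH, 217 against 465 in cohort 2 GH and 239 against 383 in cohort 2 SI. Their cohort differences were -1.28 ± 0.16 and -1.73 ± 0.16. Kcnh5, a voltage-gated potassium channel, had ratios of 0.73, -0.45 and -0.43, and was 1 of 6 potassium and HCN channel genes of 45 with a lower ratio in cohort 2, against 0 with a higher one. The noncoding genes Nrg3os and Sorbs2os and the ferritin copy Ftl1-ps1 also differed. The noncoding pair lies opposite to coding genes and Ftl1-ps1 is nearly the same sequence as Ftl1, so their counts are uncertain.

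**Figure D5:**
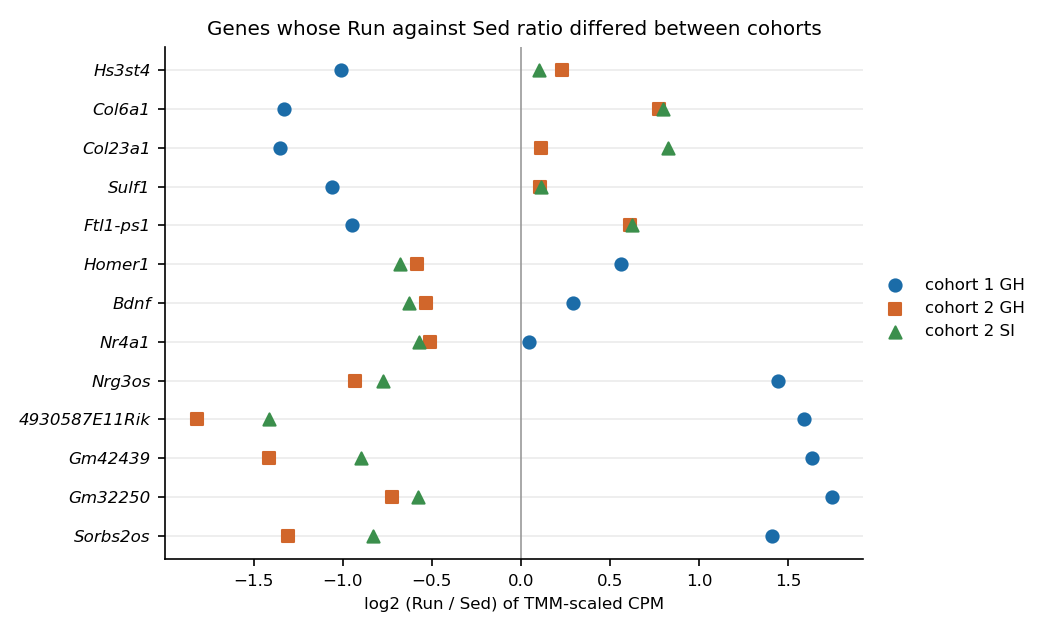
Log2 ratio of Run to Sed (x axis) of 13 genes whose ratio differed between cohorts, 1 point for each of the 3 pairs. For Hs3st4, Col6a1, Col23a1, Sulf1 and Ftl1-ps1 the cohort 1 point lies left of both cohort 2 points, and for Homer1, Bdnf, Nr4a1 and the noncoding genes it lies to their right, as for Homer1 at 0.56 against -0.58 and -0.68.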

How the data were processed

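Raw matrices of UMI counts per gene and barcode were used, deposited by the authors for all barcodes and made from 10X Chromium 3′ libraries, with introns, against mm10 with Cell Ranger 6.0.0 per the labels. Barcodes were kept that ranked within the number of nuclei the study gives, with 500 to 4000 genes and at most 1% mitochondrial UMIs. Doublets were not called.

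Counts were summed per library, because nuclei of a pool are not replicates. Genes passing filterByExpr were tested with edgeR 4.0.16 in R 4.3.3 (TMM, quasi-likelihood, pair as a block plus maternal environment, 2 residual degrees of freedom, Benjamini-Hochberg adjustment over all genes tested). DESeq2 1.42.0 was the alternative, with its default Wald test, which takes no account of the residual degrees of freedom. Pairs come from cohort and housing in the titles. Log2 ratios used a pseudocount of 0.5 CPM. Members and the 42 lists were chosen with earlier results of these data known. Named genes were called genes, the 12 per direction with the largest smallest ratio among genes of at least 100 UMIs in every library, the 4 most abundant members of each list and the 5 per direction with the lowest p by cohort. List members with the lowest p were added after their values were seen. Some genes that met the rule but are of unknown function or uncertain counts are not described, and some results are not reported here. The background profile came from droplets of 30 UMIs up to 0.5 of the smallest nucleus. Spans are those of GENCODE M21, which matched 18365 of 18380 genes. In simulated counts for all nuclei, where 200 genes were changed, 73.1% of 2-fold and 100% of 4-fold changes were called. Every simulated gene had the same dispersion (spread between libraries beyond counting), without the differences between genes of the data. These shares may therefore be too high for the data.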

Additional observations from a re-analysis of the deposited data

Results flagged for a closer look

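The ratio of Run to Sed differed between the cohorts for 1596 genes at an edgeR adjusted p of at most 0.05, by a test of the interaction of maternal environment and cohort with 1 residual degree of freedom. DESeq2 called 349 genes in this test, and edgeR called 230 when every nucleus was thinned to 1000 UMIs. Cohort 1 is 1 pair, so that its ratio has no replicate of its own, and the test could not be fitted with a library left out. In simulated counts for this test, 8.49% of 2-fold and 78.5% of 4-fold differences were called. The simulated dispersion was that of the fit without the cohort term, 0.0241, while the fit with this term had 0.00598. These shares can therefore not be taken as those of the test on the data.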

How the results depend on the processing

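For all nuclei, where edgeR called 0 genes, DESeq2 called 76 and edgeR without a filter on low counts 11. Leaving out 1 library gave 0 to 2522 calls, the calls above 0 being 2522 without the Run and 2481 without the Sed library of cohort 1. For Slc17a7-positive nuclei, DESeq2 called 35, no filter gave 60, thinning 31, and leaving out 1 library 0 to 2189, again only above 0 without the cohort 1 Run (2156) or Sed (2189) library. For Gad-positive nuclei the 5 calls became 11 with DESeq2, 45 with no filter, 8 with total UMIs, 19 with all barcodes within the limits, 1 with no upper limit on genes, 15 after thinning, 3 with cohort as the block, 0 with the background profile taken off within the gate (chosen after seeing the data), and 0 to 337 with 1 library left out. Without the replicate block, which ignores the pairing, 0 genes were called in all nuclei, in Slc17a7-positive and in Gad-positive nuclei. The count by cohort of 1596 became 349 with DESeq2, 808 with all barcodes and 230 after thinning, and stayed within 1.5 times under the other 6 alternatives, while leaving out a library of that test could not be fitted. Of genes with 1 direction in 3 pairs, 1506 higher and 1604 lower were left with at least 100 UMIs in every library, where fewer genes were tested, and 1767 were lower with total UMIs. The median of genes of 10 to 100 kb was 0.054 with total UMIs. With the background profile taken off, mt-Nd3 (0.97), mt-Atp6 (1.12), mt-Nd4 (1.03) and mt-Nd2 (0.84) became -0.037, -0.015, -0.13 and -0.16. Of the 18 lists with 1 sign in 3 pairs, 12 kept it with total UMIs, 16 after thinning and 11 with the background profile taken off. Why the counts moved was not tested. The pairs are 1 library each of pooled mice, so p-values measure the spread between pairs of libraries and not between mice, and the shallow Sed GH library of cohort 2 limits low genes in its pair.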
